A study of Mus musculus with 12 samples.

Results

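A group of 10 genes was set as the Wnt feedback and target group, namely Apcdd1, Znrf3, Rnf43, Axin2, Nkd1, Lgr5, Ascl2, Tcf7, Lef1 and Sp5. They were picked by symbol, and each was represented by whichever of its probe sets had the highest mean over the 12 arrays. Of the 10 genes, 9 had a probe set in the annotation used here, with 23 probe sets between them out of 45101 on the array. All 9 were among the 15781 genes tested, of 18194 genes with a probe set. Tcf7 had no probe set in that annotation and has no value here.

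The study profiled bipotential mouse embryonic liver (BMEL) cells, which are cell lines that can take on hepatocyte or bile duct features, on Affymetrix mouse 430 2.0 arrays. The lines 9A1 and 14B3 were isolated independently from livers of embryos at 14 days post coitum, from a cross of CBA/J and C57Bl/6J mice. Each line was grown as basal culture and as aggregate culture for 1 day and for 5 days, with 2 biological replicates of each of the 6 combinations. The sample titles name no treatment and no genetic modification. Each value is a level on the log2 scale as the authors deposited it, where a difference of 1 is a 2-fold change.

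In canonical Wnt signalling, a Wnt ligand bound to a Frizzled receptor and an LRP co-receptor stops a cytoplasmic complex from destroying beta-catenin, which then enters the nucleus and activates genes together with TCF/LEF factors. Several of the genes it activates encode inhibitors of the same pathway, which is why they are used as readouts of it. In adult liver the pathway is known for setting the gene programme of hepatocytes around the central vein, and in liver development for its part in hepatoblast growth and bile duct fate.

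The labelled cell type was checked on marker genes. Krt8, Krt18, Krt19 and Hnf4a, keratins and a liver transcription factor, were between 10.98 and 14.23 on all 12 arrays. The other hepatocyte markers varied more, with Alb at 5.57 to 14.21, Afp at 8.97 to 13.69 and Ttr at 6.14 to 14.16. So did the other biliary and progenitor markers, with Krt7 at 9.61 to 12.70, Sox9 at 6.30 to 9.24 and Epcam at 6.86 to 13.24. Ptprc, Hba-a1, Tek, Lrat and Olfm4, defining genes of leukocytes, red cells, endothelium, stellate cells and intestinal stem cells, were under log2 5 on every array. Of the intestinal genes Cdx2, a transcription factor, and Vil1, a protein of microvilli, were at 9.92 to 11.20 and 8.08 to 12.96, while Cdx1, Lyz1, Muc2 and Chga were at 4.53 to 6.14. Des, Acta2 and Pdgfrb, stellate and mesenchymal genes, were at 5.76 to 7.33, and the endothelial genes Kdr and Pecam1 at 4.63 to 6.97. Cdh5, also endothelial, was at 4.64 to 7.65, highest in replicate 1 of 9A1 basal culture. Cd68, a macrophage lysosomal gene, was at 5.85 to 6.39 at 5 days and at 6.95 to 8.13 in basal culture, so it fell along with Apcdd1 and Znrf3 (limma adjusted p = 0.011), and its part in their results was not tested. Some 9A1 arrays stood apart from their replicates. The replicates correlated at 0.952 in 9A1 basal culture and 0.949 in 9A1 aggregates of 1 day, against 0.988 to 0.996 in the other 4 groups. Replicate 1 of 9A1 basal culture was closest to an array of 14B3 aggregates of 5 days (r = 0.976). Its Alb and Epcam levels were 13.14 and 12.63, against 6.86 and 6.86 in replicate 2. Replicate 2 of 9A1 aggregates of 1 day had the narrowest distribution of levels (SD 2.13, where the other arrays had 2.25 to 2.33). The part of these arrays in the results was assessed by leaving both out.

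Apcdd1 encodes a membrane glycoprotein that binds Wnt and LRP proteins and inhibits the pathway at the cell surface. The gene lies on chromosome 18 at chr18:62922327-62953815 (GRCm38). Its level was 8.26 and 9.03 in 9A1 and 10.58 and 8.84 in 14B3 basal culture. At 1 day it was 7.64 and 7.80 in 9A1 and 8.99 and 8.59 in 14B3 aggregates. At 5 days it was 5.29 and 5.46 in 9A1 and 6.31 and 6.46 in 14B3 aggregates. All 4 arrays of 5 days lay below every array of the other cultures, while 1 day and basal culture overlapped.

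Apcdd1 fell by 3.30 ± 0.34 (SE) on the log2 scale at 5 days, with a mean of 5.88 ± 0.59 in aggregates of 5 days and 9.18 ± 0.99 in basal culture (SD, n = 4 each; limma adjusted p = 0.000183). Between 5 days and 1 day the difference was -2.38 ± 0.34 (SE), with means of 5.88 and 8.26 (limma adjusted p = 0.00194). The difference of -0.92 between 1 day and basal culture did not pass the threshold of 0.05 (95% interval -1.70 to -0.15, limma adjusted p = 0.116). Within 9A1 the 5 day difference was -3.27 and within 14B3 -3.33, with limma adjusted p of 0.0032 and 0.0021. The test of a difference between the lines in this response gave 0.062 (95% interval -1.49 to 1.61, limma adjusted p = 1.00), an interval that is wide against the response itself.

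Znrf3 and its paralogue Rnf43 encode membrane ubiquitin ligases that remove Frizzled receptors from the cell surface, and R-spondins acting through LGR receptors block them. Znrf3 lies at chr11:5276329-5444847 and Rnf43 at chr11:87663087-87735539. The Znrf3 level was 7.42 and 8.30 in 9A1 and 8.70 and 8.35 in 14B3 basal culture. It was 7.70 and 7.27 in 9A1 and 7.61 and 7.08 in 14B3 aggregates of 1 day, and 6.91 and 5.47 in 9A1 and 7.01 and 6.78 in 14B3 aggregates of 5 days. The 5 day arrays again lay below all others, with replicate 2 of 9A1 lowest by a wide margin.

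Znrf3 fell by 1.65 ± 0.33 (SE) on the log2 scale at 5 days (limma adjusted p = 0.0041). Its mean levels were 6.54 ± 0.72 in aggregates of 5 days and 8.19 ± 0.54 in basal culture (SD, n = 4 each). The differences of -0.78 at 1 day from basal culture and -0.87 at 5 days from 1 day did not pass (limma adjusted p = 0.167 and 0.0944). Within the lines the 5 day differences were -1.67 in 9A1 and -1.63 in 14B3, with limma adjusted p of 0.0415 and 0.0302. Of 12 fits that each left out 1 array, 8 lost the 9A1 call and 4 the 14B3 call. In 9A1 the difference was -0.95 without replicate 2 of 5 days (limma adjusted p = 0.274), and in 14B3 the lost calls were those without any 1 of that line's basal or 5 day arrays (highest limma adjusted p = 0.170). The 5 day fall over both lines kept its call when any array was left out, with values of -2.01 to -1.29 (highest limma adjusted p = 0.0207). Leaving out both 9A1 arrays named above gave -3.49 for Apcdd1 and -1.87 for Znrf3 (limma adjusted p = 4.9e-05 and 0.00114).

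The Rnf43 level was 5.99 and 7.14 in 9A1 and 6.15 and 6.08 in 14B3 basal culture, 6.94 and 5.76 in 9A1 and 6.36 and 6.22 in 14B3 at 1 day, and 6.45 and 6.51 in 9A1 and 5.85 and 5.99 in 14B3 at 5 days. The cultures overlapped, and the widest gaps were between replicates of 9A1. The 5 day difference was -0.14 (95% interval -0.81 to 0.52, limma adjusted p = 0.798). Without both 9A1 arrays named above it was -0.43 (limma adjusted p = 0.00981), a fit in which 9A1 basal culture is replicate 2 alone and 52.1% of genes were called. In that fit Rnf43 also passed in 5 days against 1 day, with -0.42 (limma adjusted p = 0.0149, 43% of genes called), and in 9A1 at 5 days against basal culture, with -0.66 (limma adjusted p = 0.0133, 42% of genes called).

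**Figure D1:**
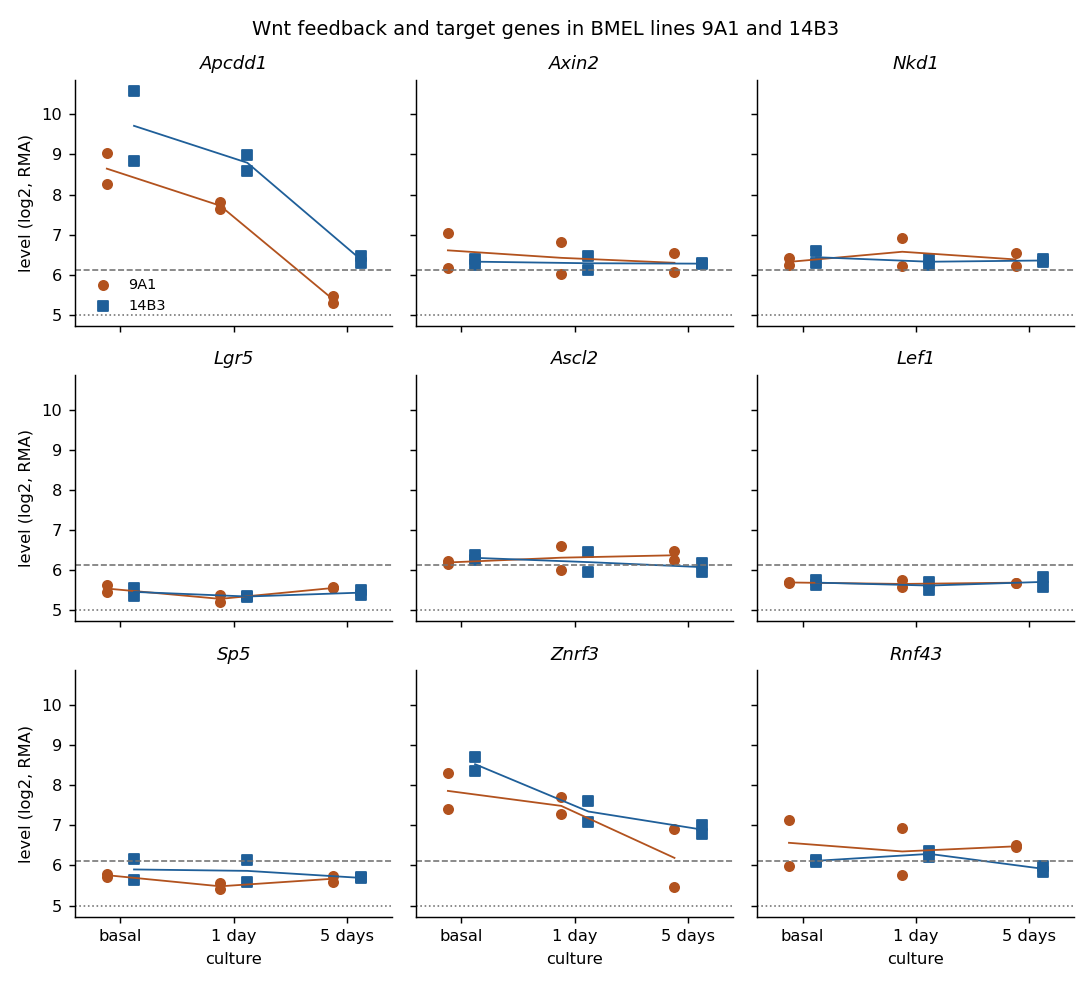
Levels (log2, RMA) of the 9 genes with a probe set, by culture on the x axis, with circles for the 2 arrays of 9A1, squares for those of 14B3 and lines through the means. The dotted line is log2 5 and the dashed line at 6.12 is the 95th percentile of chemosensory receptor probe sets. Apcdd1 drops to 5.29 to 6.46 and Znrf3 to 5.47 to 7.01 at 5 days, and the other panels stay within about the same band in all cultures.

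Across the 9 genes tested, 0 passed in aggregates of 1 day against basal culture by limma, where 14.0% of all genes did, and 2 had an unadjusted p under 0.05, namely Apcdd1 and Znrf3. At 5 days against basal culture 2 of 9 were lower and 0 higher, beside 35.4% of all genes called, 18.5% lower and 16.9% higher. The median difference over the 9 was -0.14 at 5 days and -0.11 at 1 day, beside medians of 0.01 and 0.03 over all genes. Between 5 days and 1 day 1 of 9 was lower, beside 21.7% of all genes called. Within 9A1 and within 14B3 the same 2 genes passed at 5 days, both lower, with 15.2% and 26.7% of all genes called and 8.54% and 14.1% lower, and 0 passed at 1 day, with 1.88% and 8.57% called. At 1 day within a line the count at an unadjusted p under 0.05 was 0 in 9A1 and 1 in 14B3. With 9 genes these counts do not set the group apart from all genes, and the members differed among themselves in how far they moved. The span between the highest and lowest of the 6 group means was 4.33 for Apcdd1 and 2.34 for Znrf3, at the 98.2 and 91.9 percentile of all genes tested, and 0.09 to 0.65 for the other 7, against a median of 0.69 over all genes.

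**Figure D2:**
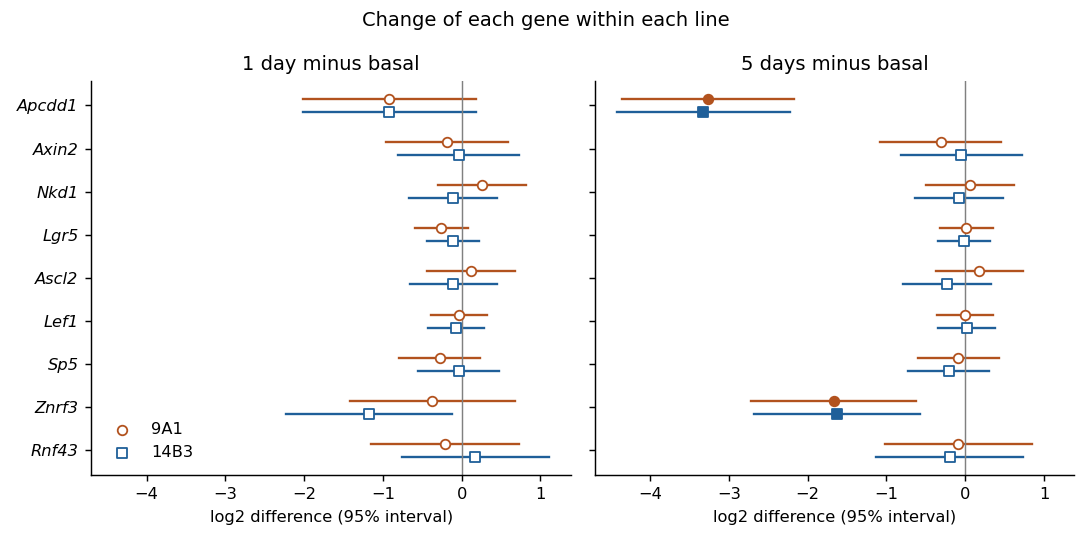
Difference from basal culture on the log2 scale for each gene at 1 day and at 5 days, with circles for 9A1, squares for 14B3 and bars for the 95% interval; filled symbols passed limma's adjusted p of 0.05. The filled symbols are those of Apcdd1, at -3.27 and -3.33, and of Znrf3, at -1.67 and -1.63, all at 5 days.

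Levels of the remaining genes were set against a background guide, since the deposited table has no detection calls. The guide was the 80 probe sets of olfactory and vomeronasal receptor genes, which liver cells are not known to use, whose 12-array means had a median of 4.57 and a 95th percentile of 6.12. Different probe sets respond differently to the same amount of RNA, so the guide does not rank the genes. Apcdd1 and Znrf3 had 12-array means of 7.77 and 7.38, well over the guide. However, Apcdd1 in 9A1 was under 6.12 at 5 days, as was its 5 day mean of 5.88. Znrf3 was under 6.12 in replicate 2 of 9A1 at 5 days, at 5.47. A difference against a level under the guide, as for Apcdd1 at 5 days or, below, for Wnt5a and Cyp1a2 in basal culture (means of 6.06 and 5.41), may understate the change in RNA, so no fold is given for it. Nkd1, Axin2, Rnf43 and Ascl2 exceeded 6.12 by only 0.28, 0.25, 0.17 and 0.12. On single arrays the 95th percentile of the guide was 5.74 to 6.61, so these genes were not clearly over background. Sp5, Lef1 and Lgr5, with means of 5.73, 5.67 and 5.44, were below 6.12, so a lack of change in these 3 genes says little about their transcripts. For Nkd1, Axin2, Rnf43 and Ascl2 a lack of change is limited in the same way.

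Axin2, a scaffold of the beta-catenin destruction complex and a widely used readout of the pathway, lies at chr11:108917828-108950783. Its level was 6.17 and 7.04 in 9A1 and 6.40 and 6.25 in 14B3 basal culture, 6.03 and 6.82 in 9A1 and 6.11 and 6.46 in 14B3 at 1 day, and 6.06 and 6.53 in 9A1 and 6.27 and 6.28 in 14B3 at 5 days. The cultures overlapped and the replicates of 9A1 were again the farthest apart. Its 5 day mean was 6.29 ± 0.19 and its basal mean 6.47 ± 0.40 (SD, n = 4 each), a difference of -0.18 (95% interval -0.72 to 0.36, limma adjusted p = 0.667). Without both 9A1 arrays named above, Axin2 passed at 1 day with -0.53 (limma adjusted p = 0.0428), where 34% of genes were called, and not at 5 days, with -0.40 (limma adjusted p = 0.0615). Within 9A1 it then passed at both times, with -1.02 at 1 day and -0.75 at 5 days (limma adjusted p = 0.0425 and 0.0356, 15.5% and 42% of genes called), against 1 basal array. The other Axin2 probe set, 1421341_at, was at 4.29 to 4.97 and so under log2 5 on every array. Nkd1, which binds Dishevelled and inhibits the pathway in the cytoplasm, lies at chr8:88521342-88594887 and was at 6.21 to 6.92 on all arrays. Its 5 day difference was -0.01 (95% interval -0.41 to 0.39, limma adjusted p = 0.979). The other Nkd1 probe sets averaged 5.93, 5.41 and 5.03.

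Lgr5, a receptor for R-spondins that marks intestinal stem cells and is induced in injured liver, lies at chr10:115450314-115587780. It was at 5.37 to 5.57 at 5 days, 5.20 to 5.37 at 1 day and 5.36 to 5.62 in basal culture. The arrays of 5 days and 1 day did not overlap, but the difference of 0.18 did not pass (95% interval -0.05 to 0.42, limma adjusted p = 0.268). Its second probe set, at 5.00 to 5.75, had a 5 day mean of 5.11 against 5.35 at 1 day, the opposite direction.

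The members that are transcription factors stayed within narrow ranges. Ascl2, a factor of intestinal stem cells at chr7:142966822-142969264, was at 5.94 to 6.61, and its other probe sets averaged 3.99 and 3.76. Lef1, a DNA partner of beta-catenin at chr3:131110297-131224357, was at 5.51 to 5.84, and its 6 group means spanned 0.09. The other Lef1 probe set averaged 4.27. Sp5, a zinc finger repressor and direct target at chr2:70474923-70477726, was at 5.40 to 6.17. Over Axin2, Nkd1, Rnf43, Lgr5, Ascl2, Lef1 and Sp5 together, the 5 day differences were between -0.18 and 0.01, with 95% intervals inside -0.81 to 0.52 and a lowest limma adjusted p of 0.576. At 1 day they were between -0.19 and 0.07, with intervals inside -0.68 to 0.64. Those intervals are for the mean of the 2 lines, and a 2-fold change of these 7 levels lies outside them. Within a line the intervals were wider and did not all exclude a 2-fold change. They reached -1.08 in 9A1 and -1.13 in 14B3 at 5 days, and -1.15 in 9A1 and 1.11 in 14B3 at 1 day. For probe sets near background a change in RNA also gives a smaller change in level.

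The promoters of Sp5 and Axin2 are shown because both genes are standard targets of TCF/LEF factors and neither passed the test. They run from 250 bases before to 50 after the start, from RefSeq on GRCm38.p6, plus strand, Sp5 at chr2:70474673-70474972 and Axin2 at chr11:108920099-108920398. The Axin2 window belongs to a transcript start inside the gene's range given above, not to its first base. Capitals mark the TCF/LEF words searched on both strands, which were CTTTG followed by AA, by AT, by TA or by TT.
Sp5: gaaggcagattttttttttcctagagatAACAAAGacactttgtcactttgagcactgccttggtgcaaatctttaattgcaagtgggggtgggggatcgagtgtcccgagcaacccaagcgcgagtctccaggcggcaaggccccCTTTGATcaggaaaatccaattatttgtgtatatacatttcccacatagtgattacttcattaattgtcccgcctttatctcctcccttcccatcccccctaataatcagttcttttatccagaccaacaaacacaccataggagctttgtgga
Axin2: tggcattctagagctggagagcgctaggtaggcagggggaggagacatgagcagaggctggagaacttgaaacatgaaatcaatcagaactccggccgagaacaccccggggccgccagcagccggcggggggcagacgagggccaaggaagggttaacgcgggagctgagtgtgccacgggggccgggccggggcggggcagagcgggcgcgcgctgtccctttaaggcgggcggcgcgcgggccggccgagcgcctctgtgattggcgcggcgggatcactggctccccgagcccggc
Sp5 held 2 words, one on the minus strand with its first base at -222 from the start and one on the plus strand at -104, and Axin2 held 0. Of 32851 promoter windows of the same length 16.9% held at least 1 word and 1.94% held 2 or more. Of 12 windows for 7 of the genes, those of Sp5 and 1 of Lef1 held a word. A match is only a match of letters in this window.

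The probe sets of the 2 genes that fell were compared in a fit over 28748 single probe sets. For Apcdd1, 4 of 5 tested probe sets fell at 5 days against basal culture. The log2 differences were -3.49 for 1454822_x_at, -3.30 for 1449070_x_at, -2.50 for 1418382_at and -1.76 for 1418383_at (limma adjusted p = 0.000251, 0.000202, 0.000699 and 0.00838). The suffix x marks probe sets in which some probes also match other transcripts, and the last 2 of these 4 do not carry it. The probe set 1437604_x_at stayed at 6.66 to 7.82, with a 5 day difference of -0.37 (limma adjusted p = 0.180), and 1443639_at was at 3.80 to 4.50 on all arrays and was not tested. For Znrf3, 1435608_at fell by 1.65 on the log2 scale, while 1437646_at was at 4.96 to 5.41 with a difference of -0.03 (limma adjusted p = 0.885). The Znrf3 result therefore stands on 1 probe set and that of Apcdd1 on 4.

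**Figure D3:**
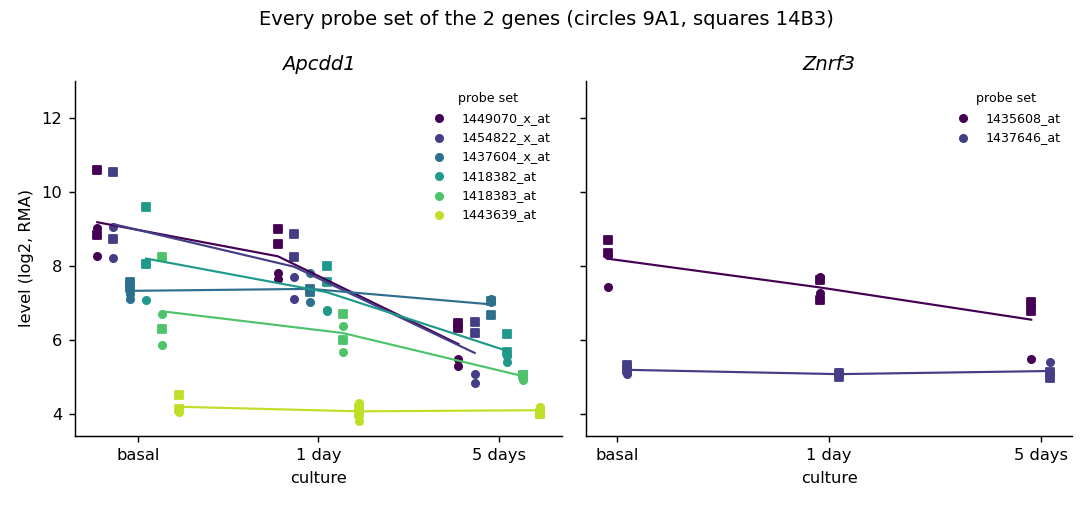
Levels (log2, RMA) of every probe set of Apcdd1 and Znrf3 by culture, circles 9A1 and squares 14B3, with a line through the mean of each culture. For Apcdd1 4 probe sets drop at 5 days and those at 6.66 to 7.82 and 3.80 to 4.50 stay level; for Znrf3 the probe set at 4.96 to 5.41 stays level.

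Between the lines, 0 of the 9 genes passed in the comparison of 9A1 with 14B3 over the cultures, where 0.272% of all genes were called, and 1 had an unadjusted p under 0.05. That gene was Apcdd1, with 7.25 in 9A1 and 8.30 in 14B3, a difference of -1.05 ± 0.28 (SE; limma adjusted p = 0.230). Without both 9A1 arrays named above, the Rnf43 difference was 0.75, with 6.85 in 9A1 and 6.11 in 14B3, against 0.36 with all arrays. In that fit 9A1 has 1 basal array and 1 array of 1 day, at 7.14 and 6.94 for Rnf43. The arrays left out were at 5.99 and 5.76. The group means of Apcdd1 were 8.65 ± 0.54 in 9A1 and 9.71 ± 1.23 in 14B3 basal culture (SD, n = 2 each). They were 7.72 ± 0.11 and 8.79 ± 0.28 in 9A1 and 14B3 at 1 day (SD, n = 2 each). At 5 days the Apcdd1 means were 5.38 ± 0.12 in 9A1 and 6.38 ± 0.11 in 14B3 (SD, n = 2 each). From the highest level down, the groups ran 14B3 basal, 14B3 1 day, 9A1 basal, 9A1 1 day, 14B3 5 days and 9A1 5 days, and the first 3 overlapped between neighbours. For Znrf3 the order was 14B3 basal, 9A1 basal, 9A1 1 day, 14B3 1 day, 14B3 5 days and 9A1 5 days. Its 3 middle neighbours from 9A1 basal to 14B3 1 day overlapped, as did the lines at 5 days. None of the 9 genes passed limma's interaction test of the lines' responses, where 0% of all genes were called at 1 day and 0.038% at 5 days, and 0 had an unadjusted p under 0.05.

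The genes whose profiles over the 12 arrays were most like those of the 2 that fell were found by the root mean square difference of levels centred on each gene's mean. For Apcdd1 they were Htra1, a secreted serine protease, at 0.45, and Epha4, an ephrin receptor, at 0.49, where Apcdd1 itself varied by 1.54. Htra1 had mean levels of 10.81 in basal arrays, 9.65 in those of 1 day and 7.44 in those of 5 days. Epha4 averaged 9.23, 8.64 and 6.40 in the same order. For Znrf3 they were Ipo4, a nuclear import receptor, at 0.21, and Qk, an RNA-binding protein, at 0.24, where Znrf3 varied by 0.82. Ipo4 averaged 10.62, 9.93 and 8.94 in that order. Qk averaged 11.52 in basal culture and 10.80 at 1 day, and its 5 day difference from basal culture was -1.53. Znrf3 ranked 439 of 15780 genes by likeness to Apcdd1, at 0.95. In the other direction Apcdd1 ranked 11032 of 15780 by likeness to Znrf3, at the same 0.95, which is more than Znrf3 itself varied. Htra1, Epha4, Ipo4 and Qk were chosen for their likeness, and their values are a description.

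The other genes of the pathway were taken from a list of 96, of which 87 were tested. At 1 day 6 were higher and 3 lower (10.3%, beside 14.0% of all genes), and at 5 days 9 were higher and 17 lower (29.9%, beside 35.4% of all genes). Their median differences were 0.04 at both times. The list of other targets had 5 of 8 lower and 0 higher at 5 days, beside 18.5% of all genes lower and 16.9% higher. Its median was -1.21, and the list of 8 was not tested as a set. The 5 were Ccnd1, Myc and Cd44, and, named after their values were seen, Ccn4 and Ephb3. Ccnd1 and Myc, drivers of cell growth and division, are also set by other pathways.

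Ccnd1 averaged 8.84 ± 0.95 at 5 days and 12.03 ± 1.07 in basal culture, a difference of -3.19 (SD, n = 4 each; limma adjusted p = 0.0038). Replicate 1 of 9A1 basal culture, at 10.48, was below the other 3 basal arrays, at 12.32 to 12.93. Myc averaged 8.83 ± 0.73 at 5 days, 8.44 ± 0.41 at 1 day and 11.07 ± 0.42 in basal culture. It fell by 2.63 at 1 day (limma adjusted p = 0.000584). Apcdd1 and Znrf3 had 1 day differences of -0.92 and -0.78, which did not pass. Whether Myc differed from them in timing was not tested. Cd44, a hyaluronan receptor, fell by 2.17 at 5 days (limma adjusted p = 0.00732).

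Among 17 receptors 3 were higher and 3 lower at 5 days (35.3%, beside 35.4% of all genes). The Frizzled receptor Fzd6 averaged 7.21 at 5 days and 9.66 in basal culture, a difference of -2.45, and Fzd2 averaged 7.12 and 9.16 in the same cultures, a difference of -2.05 (limma adjusted p = 0.000871 and 0.00212). Fzd5 ran the other way, at 11.18 and 9.94, higher by 1.25 (limma adjusted p = 0.0037), and was already higher at 1 day by 1.06, as was the R-spondin receptor Lgr4 by 1.02 (limma adjusted p = 0.0212 and 0.0399).

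Of 18 ligands, 1 was higher and 1 lower at 5 days (11.1%, beside 35.4% of all genes). Wnt5a, a ligand known mainly for signalling without beta-catenin, was at 9.18 and 8.98 in 9A1 and 8.11 and 7.76 in 14B3 aggregates of 5 days, against 7.50 and 6.38 in 9A1 and 4.91 and 5.43 in 14B3 basal culture. All 5 day arrays were above all basal arrays, and the difference was 2.45 (limma adjusted p = 0.00176). Wnt9a, with means under the guide, fell by 0.52 at 5 days and Wnt4 rose by 0.52 at 1 day, with limma adjusted p of 0.0419 and 0.0478, and these calls were lost in 9 and 10 of the 12 fits that left out 1 array. Porcn, the acyltransferase of Wnt proteins, fell by 1.21 at 1 day and fell by 1.19 at 5 days, and Wls, their secretion carrier, was higher by 0.95 at 1 day (limma adjusted p = 0.0162, 0.0064 and 0.0393). Neither of 2 R-spondins and none of 10 secreted inhibitors passed by limma at 1 day or 5 days, beside 14.0% and 35.4% of all genes. Of these genes 0 had an unadjusted p under 0.05. Rspo4, Dkk1, Dkk2, Dkk3, Frzb and Notum had means under the guide in basal culture and at 1 day, so their lack of a call says little.

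Of 13 cytoplasmic components 4 were lower and 1 higher at 5 days (38.5%, beside 35.4% of all genes), and 0 passed by limma at 1 day, when 2 had an unadjusted p under 0.05. Dvl2, Apc and Csnk1a1 had differences of -0.61, -0.55 and -0.50 (limma adjusted p = 0.00735, 0.0476 and 0.0102). The mean over all probe sets of Csnk1a1 gave 0.064 in place of -0.50. Of 10 nuclear partners 3 were lower and 1 higher at 5 days (40.0%, beside 35.4% of all genes). The beta-catenin inhibitor Ctnnbip1 fell by 0.93 and the co-repressor Tle3 fell by 0.70, while Tle4 was higher by 0.41 (limma adjusted p = 0.00239, 0.0103 and 0.0451). Tle2 was higher by 1.77 at 1 day (limma adjusted p = 0.00597). Ctnnb1, beta-catenin itself, was named after its values were seen: it averaged 13.78 at 5 days and 13.68 in basal culture (limma adjusted p = 0.360), near the top of the scale. In the fits without 1 array the calls of Lgr4 and Wls at 1 day were lost in 10 and 9 of 12, and those of Apc, Tle4 and Ccn4 at 5 days in 9, 8 and 6 of 12. The calls of Fzd5, Porcn and Glul at 1 day were lost in 4, 3 and 2 of 12, and that of Cyp1a2 at 5 days in 3 of 12.

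Of 7 pericentral liver genes that are known to respond to the pathway, 3 were higher at 5 days and 0 lower, beside 16.9% of all genes higher and 18.5% lower, counts too small to set the list apart. Lect2, a secreted protein of hepatocytes, averaged 7.98 ± 0.58 at 5 days and 6.38 ± 0.23 in basal culture, higher by 1.60, and the ammonium transporter Rhbg was higher by 1.23 and Cyp1a2 by 0.77 (SD, n = 4 each; limma adjusted p = 0.00199, 0.00251 and 0.017). Rhbg was at 6.81 and 6.63 in 9A1 but 8.58 and 8.50 in 14B3 aggregates of 5 days, against 7.32 and 6.17 in 9A1 and 6.10 and 6.00 in 14B3 basal culture. At 1 day Glul, glutamine synthetase, was higher by 0.94 and Oat, ornithine aminotransferase, fell by 1.29 (limma adjusted p = 0.0174 and 0.00502). Of the hepatocyte markers, Alb was at 11.88 to 14.21 at 5 days and at 5.57 to 13.14 in basal culture, where the top value is replicate 1 of 9A1. The mean over the 6 markers was 12.66 to 13.58 at 5 days and 10.23 to 13.10 in basal culture. Krt18 ran the other way and fell by 1.08, and Krt8 had a difference of -0.05 (limma adjusted p = 0.000289 and 0.563). The part of that shift in the pericentral values was not tested.

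**Figure D4:**
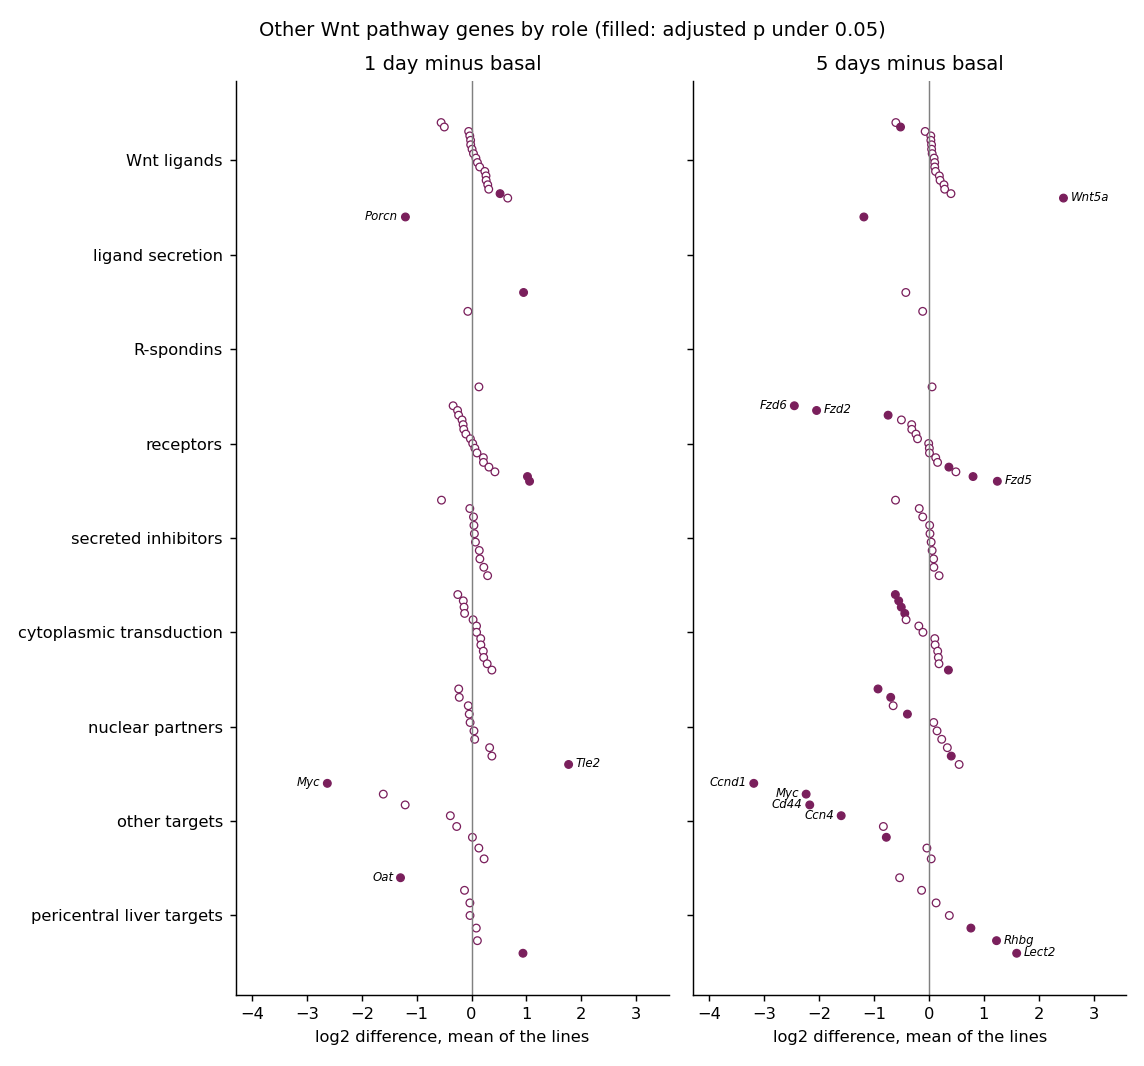
Differences from basal culture on the log2 scale, averaged over the lines, for 87 other Wnt pathway genes by role, at 1 day and at 5 days. Filled points passed limma's adjusted p of 0.05, and those beyond 1.2 are named. At 5 days the 5 of 8 other targets that passed lie to the left, with Ccnd1 at -3.19. The pericentral genes Lect2 and Rhbg lie to the right, at 1.60 and 1.23.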

How the data were processed

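Total RNA of 12 BMEL cultures was labelled with biotin and hybridised to Affymetrix mouse 430 2.0 arrays. The log2 levels are those deposited by the authors. For their making, the submitters' processing notes name R 2.3.1 and RMA. RMA corrects background, scales all arrays to one distribution and sums up probes, so changes in total RNA are not seen. Array medians were 6.09 to 6.24, 0 value columns were left unmapped, and the number of arrays limits the precision.

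A platform annotation gave 1 gene for 34945 of 45101 probe sets, several for 932 and none for 9160, and 64 were controls. Positions came from RefSeq on GRCm38.p6, which held 34741 of the 34945. Genes at log2 5 or more on at least 2 arrays were tested, with one limma 3.58.1 model (R 4.3.3) of 6 group means over 12 arrays, a variance trend, and Benjamini-Hochberg adjustment over all 15781 genes (threshold 0.05). Contrasts with basal culture share the basal arrays, and those with 1 day share the 1 day arrays. The scripts were tested on simulated data. The labels call the replicates biological but do not say how cultures were separated, so p-values measure the spread between these samples.

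The 10 genes, the lists and the tests were chosen with earlier results of these data known. Named beside the 10 genes are, per pathway list and comparison, up to 3 called genes with the largest change, and for genes whose group means span at least 1.5, the 2 most alike. Alternatives were no filter or a floor of 6, averaging a gene's probe sets, single probe sets, quantile normalisation, median centring, array weights, no variance trend, a replicate block, each line alone and leaving out each array; leaving out both outlying 9A1 arrays, and the single probe sets, were added after seeing the data. Deviations of same-numbered replicates correlated at -0.30 to 0.50 over 15 pairs of groups, with 5 over 0.1. The highest was between the lines at 1 day, where each 9A1 array was closest to the 14B3 array of its number. The labels do not say that replicate numbers pair cultures, so numbers were not used as pairs in the main fit. These correlations do not decide whether some cultures were paired.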

Additional observations from a re-analysis of the deposited data

Results flagged for a closer look

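Among 27 sets of 4 arrays, 1 for each of the 9 genes in each culture, 2 held an array far from the other 3, and chance flags about 1 in 20 such sets. Both are replicates 2 of 9A1. At 5 days Znrf3 was at 5.47 in that array and at 6.78 to 7.01 in the other 3, a gap of 0.850 of the whole range. In basal culture Rnf43 was at 7.14 in that array and at 5.99 to 6.15 in the other 3, a gap of 0.862 of the whole range.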

How the results depend on the processing

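The 5 day fall of Apcdd1 and Znrf3 over both lines passed in every alternative run. Leaving out 1 array gave -3.73 to -2.86 for Apcdd1 and -2.01 to -1.29 for Znrf3. The size varied more with the probe set. It was -3.49 to -0.37 over the tested probe sets of Apcdd1, and -1.65 and -0.03 for those of Znrf3. Of the 9 genes tested, 2 were called at 5 days whichever array was left out, where 26.5% to 44.2% of all genes were called. At 1 day 0 to 1 were called (5.42% to 30.4% of all genes), and at 5 days against 1 day 1 to 2 (11.5% to 31.5%). Within the lines 0 were called in 9A1 and 0 to 1 in 14B3 at 1 day, and 1 to 2 in each line at 5 days. The comparison of the lines and the interactions gave 0. The call gained at 1 day is Apcdd1 without replicate 2 of 14B3 basal culture (-1.36, limma adjusted p = 0.0132). Pathway genes called at 1 day were 3 to 21. The fewest came without replicate 1 of 14B3 basal culture, where 5.42% of all genes were called. The most came without replicate 1 of 9A1 at 1 day (30.4%). At 5 days they ran from 16 without replicate 2 of 14B3 basal culture (28.3%) to 33 without replicate 1 of 9A1 at 1 day (43.7%).

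Without both outlying 9A1 arrays the counts were 1 at 1 day, 3 at 5 days, 3 at 5 days against 1 day, 1 for the lines, 1 in 9A1 at 1 day and 4 in 9A1 at 5 days, and 19 and 38 pathway genes, where 34%, 52.1%, 43%, 10.7%, 15.5% and 42% of all genes were called in those 6 comparisons. Array weights and the 6 arrays of the line alone gave 1 in 14B3 at 1 day and 1 in 9A1 at 5 days, as did the mean of probe sets in 9A1 at 5 days. A replicate block gave 2 at 5 days and changed no call of Apcdd1 or Znrf3. It left 7 and 22 pathway genes called at 1 and 5 days, where 12.5% and 34.4% of all genes were called. The cause was not tested. In 6 of 224 combinations of fit and comparison over 23 alternatives any of the other 7 genes was called, all without both arrays.

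Uncalled values near 0 changed sign: the Apcdd1 interaction at 1 day to 0.23 with the mean of probe sets and 0.13 with quantile normalisation, that at 5 days to -0.32 without both arrays, and the Znrf3 interaction at 5 days to 0.15 with the mean of probe sets. Without 1 array they ran from -0.87 to 0.87, -0.81 to 0.93 and -0.76 to 0.68, and the Znrf3 difference in 9A1 at 1 day from -0.81 to 0.066. The called fall of Csnk1a1 at 5 days became 0.064 with the mean of its probe sets.

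Sp5, Lef1 and Lgr5 lay under the background guide, and Nkd1, Axin2, Rnf43 and Ascl2 lay close to it, which limits what their levels show.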
